A study of Mus musculus with 2 samples.

Results

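The immediate early genes described here were 10 genes found by symbol in the gene list of 2 single-cell RNA-seq libraries, out of 32285 genes measured. They were Fos, Fosb, Jun, Junb, Jund, Atf3, Egr1, Nr4a1, Ier2 and Dusp1, and all 10 were present once. The genes were listed by name, with no threshold on a measured value, though earlier results of these data were known when they were listed. Both libraries came from hindlimb muscle of female C57Bl/6J mice aged 24 months, with 2 mice pooled per library. One library, ATRA+agonist, came from mice that had received 3 rounds of intramuscular injections of ATRA (all-trans retinoic acid, the ligand of the retinoic acid receptors) with CD3254, an RXRα agonist, and BMS961, an RARγ agonist. The other library, DMSO vehicle, came from mice injected with the solvent on the same schedule. With 1 library per group there was no replicate, so no test between the treatments was possible. Every interval below is a 95% interval for counting error only, and any difference between the libraries cannot be told apart from a difference between the pools of mice, the dissections or the library preparations.

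After filtering, 6907 cells of the ATRA+agonist library (10444 barcodes as deposited, 65197625 UMIs) and 6953 cells of the vehicle library (17394 barcodes, 109343486 UMIs) were kept. A UMI, or unique molecular identifier, counts 1 captured RNA molecule. The libraries shared 43 barcodes as deposited and 9 after filtering. The cells formed 23 clusters, and 20 of them were named from marker genes as 11 classes, each called "like" a cell type because no sorted reference was present. The other 3 clusters, with 6.02% of the cells, stayed unnamed. The member genes were left out of the clustering. One class had the markers of muscle fibers (Acta1, Tnnc2 and Mylpf led it), but its 229 barcodes, all in the ATRA+agonist library, held the nuclear RNA Malat1 at 166 CPM against 5123 to 54476 CPM in the other classes. It is therefore called Acta1-led barcodes, not myonuclei. One endothelial-like cluster was also low in Malat1, at 708 CPM (656 cells, ATRA+agonist) and 1178 CPM (377 cells, vehicle), and was kept in its class. B cell-like cells numbered 622 in the ATRA+agonist library and 31 in the vehicle library, and neutrophil-like cells 20 and 147.

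Immediate early genes are transcribed within minutes of a stimulus, from factors already present in the cell and without new protein synthesis. Fos, Fosb, Jun, Junb and Jund encode the subunits of AP-1, a dimeric transcription factor in which a FOS protein pairs with a JUN protein, or JUN proteins pair with each other. Atf3 encodes a related bZIP protein induced by stress, Egr1 a zinc finger factor induced by growth signals, and Nr4a1 an orphan nuclear receptor. Ier2 encodes a small nuclear protein, and Dusp1 a phosphatase that switches off the MAP kinases that induce many of these genes. In muscle, enzymatic dissociation itself is known to induce the family, and quiescent muscle stem cells (MuSCs) show it soon after they are removed from their niche. Both libraries were digested with dispase II and collagenase II at warm temperature, so a level measured here can come from the tissue or from the digestion, which cannot be told apart.

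The members lie on 8 chromosomes of the GRCm38 mouse assembly (GENCODE M21 annotation). Fos is at chr12:85473890-85477273 on the plus strand and Jun at chr4:95049034-95052222 on the minus strand. Junb, Jund and Ier2 all lie on chromosome 8, at 84974484-84978718, 70698949-70700616 and 84661331-84662852. Nr4a1 is at chr15:101254269-101274795 and Dusp1 at chr17:26505590-26562128. The annotated span of Dusp1 overlaps other gene models on the same strand, and Jun, Junb, Jund, Atf3 and Dusp1 overlap models on the opposite strand. How the counting treated reads in these overlaps was not examined.

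Many immediate early promoters carry the cyclic AMP response element, whose core is TGACG and whose full palindrome is TGACGTCA. In the RefSeq promoter table (GRCm38.p6), which held 8 of the 10 members, the 250 bases upstream of the start held TGACG on either strand in 6 members, namely Fos, Fosb, Junb, Atf3, Nr4a1 and Dusp1. The core was present in 17.8% of all 32851 promoter windows of that length. Fos and Nr4a1 are shown whole because they hold 2 and 4 copies, and because Fos had the largest ratio upward between the libraries and Nr4a1 one of the 2 largest downward. Capitals mark the core, as TGACG or, where it lies on the other strand, CGTCA.
Fos, chr12:85473640-85473889, plus strand: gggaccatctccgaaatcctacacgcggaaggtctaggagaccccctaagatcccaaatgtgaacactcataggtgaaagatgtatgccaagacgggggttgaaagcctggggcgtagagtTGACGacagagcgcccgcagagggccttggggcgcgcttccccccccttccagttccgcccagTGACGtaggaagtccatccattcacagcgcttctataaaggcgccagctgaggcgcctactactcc
Nr4a1, chr15:101266596-101266845, plus strand: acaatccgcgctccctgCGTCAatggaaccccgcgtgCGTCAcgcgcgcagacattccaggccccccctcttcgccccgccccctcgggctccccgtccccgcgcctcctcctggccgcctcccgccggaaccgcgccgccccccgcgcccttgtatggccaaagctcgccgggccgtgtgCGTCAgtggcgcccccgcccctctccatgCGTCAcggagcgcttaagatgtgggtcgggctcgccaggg

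Dusp1 was the only one of the 8 members with the full palindrome, which 1.55% of all windows held. It is shown with its neighbouring bases, on the minus strand at chr17:26508597-26508626, with the palindrome in capitals.
Dusp1: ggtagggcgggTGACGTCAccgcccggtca
Its first base lay 143 bases before the start. The AP-1 site TGACTCA (either strand; 4.46% of all windows) and the CArG box, the binding site of serum response factor (1.47%), were found in none of the 8 windows. Jun and Jund had no TGACG. The Jund window, chr8:70697489-70697738 on the plus strand, ended before the GENCODE start of the gene at 70698949. For Jund, the absence of these sequences therefore does not describe the bases next to that start. The Atf3, Nr4a1 and Dusp1 windows lay inside the GENCODE spans of their genes, away from the outermost start. Their matches do not describe the bases next to that start either. The Atf3, Fosb and Dusp1 windows overlapped annotated exons of the same genes. All of these are exact matches of letters in a short window and say nothing about binding. Sites with other letters or farther upstream were not searched, and Egr1 and Ier2 had no window.

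Summed over the 10 genes, the level was higher in the stromal, vascular, glial and MuSC-like classes than in B cell-like and neutrophil-like cells, except in perineurial-like cells of the ATRA+agonist library. Single members departed from this order. Levels are given in CPM, the UMIs of a gene per 1000000 UMIs of the summed cells of a class, and are compared for 1 gene at a time. In the vehicle library, the 10 genes together took 18351 CPM (18120 to 18584) in mural-like cells, the class with smooth muscle and pericyte markers. They took 14537 CPM (14400 to 14674) in tenocyte-like cells and 14416 (14352 to 14480) in fibro-adipogenic progenitor-like (FAP-like) cells, whose intervals overlapped. Endothelial-like cells were at 14138 CPM, and MuSC-like and glial-like cells followed at 13887 and 13833, again with overlapping intervals. The order of endothelial-like and MuSC-like cells depended on which UMIs entered the total, as given in the last section. Perineurial-like cells were at 11258 CPM, monocyte or macrophage-like cells at 10595, B cell-like cells at 4880 and neutrophil-like cells at 3573. The span from the highest to the lowest class was 5.14-fold. It was 13.3-fold in the ATRA+agonist library, where the Acta1-led barcodes were lowest at 1450 CPM. Most members in these barcodes were near the CPM of the hemoglobin-rich barcodes given below, which is not an amount per droplet. Down to perineurial-like cells, the next lowest class, the span was 4.33-fold. In the ATRA+agonist library, MuSC-like cells were highest at 19340 CPM (19191 to 19490). Mural-like cells, highest in the vehicle library, stood below 5 other classes at 13664 (13424 to 13907). Perineurial-like cells were at 4463 CPM there, below B cell-like (5685 CPM) and neutrophil-like cells (4717 CPM).

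**Figure D1:**
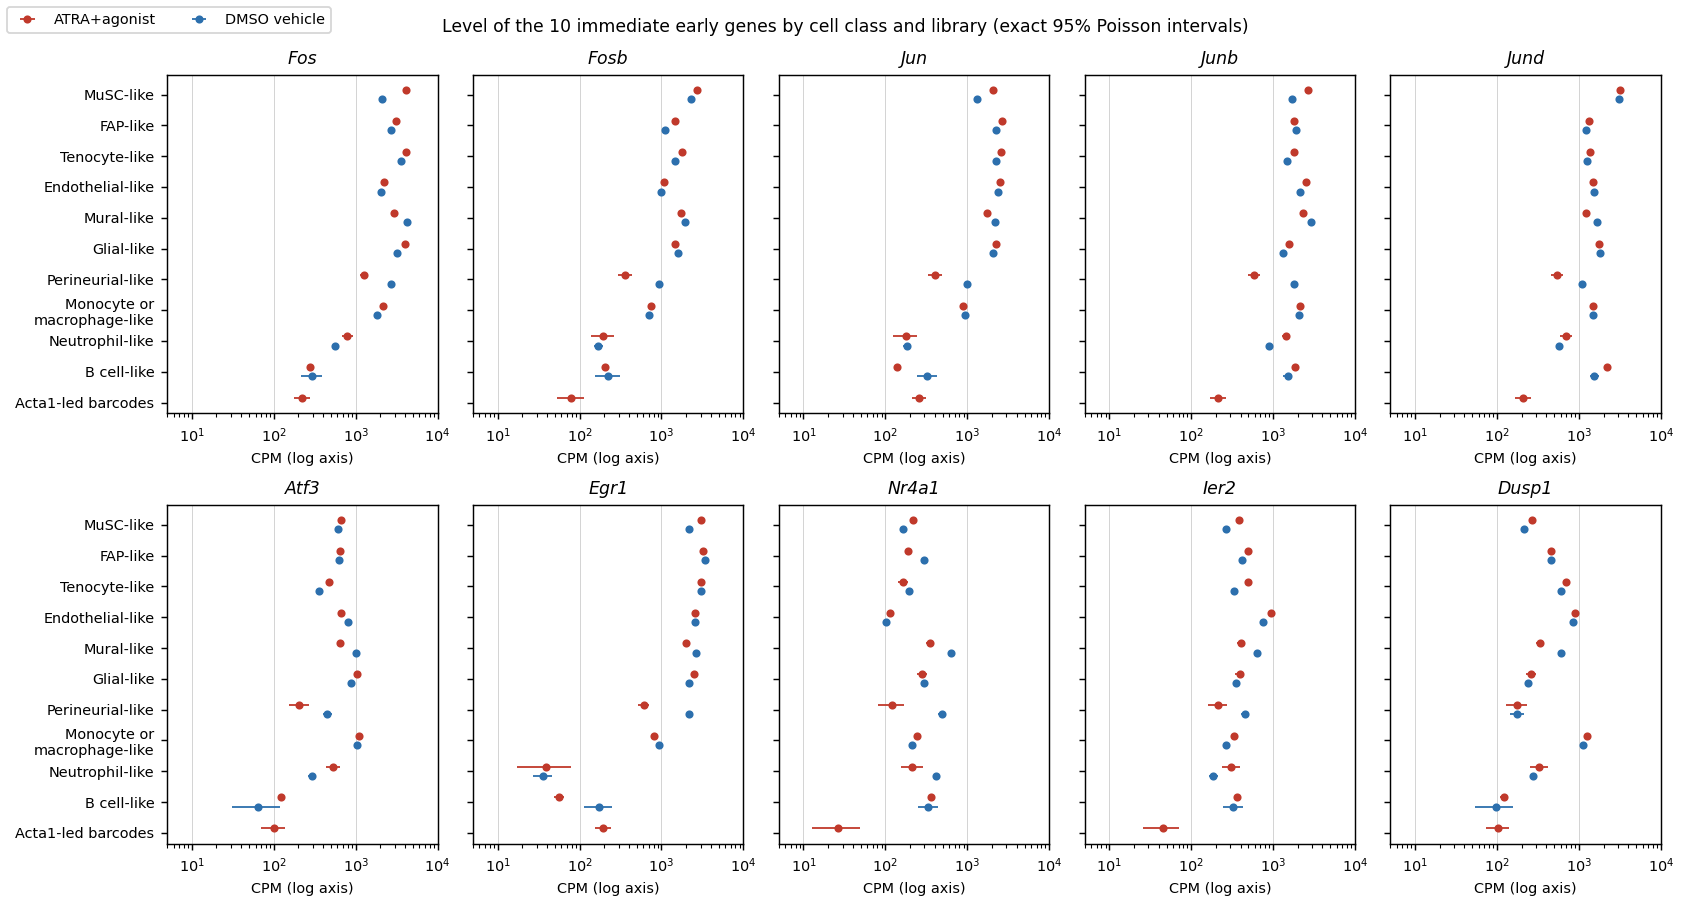
Level of each of the 10 genes (CPM, log axis) in 11 cell classes, with 1 point per library and exact 95% Poisson intervals. Egr1 spans the widest range, from 3406 CPM in FAP-like to 36 CPM in neutrophil-like cells of the vehicle library, while Junb stays at 882 CPM or more there.

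The AP-1 subunits did not share one order of classes. Fosb was highest in MuSC-like cells of both libraries, at 2699 and 2305 CPM (ATRA+agonist and vehicle, in this order from here on), as was Jund at 3210 and 3050 CPM. In every other class Jund was at most 2176 and 1788 CPM. Jun was highest in FAP-like cells of the first library (2683 CPM) and in endothelial-like cells of the second (2396 CPM), and its level in monocyte or macrophage-like cells was 884 and 936 CPM. Junb varied least between classes of the vehicle library, where its span was 3.26-fold, from 2872 CPM in mural-like to 882 CPM in neutrophil-like cells. Fos spanned 14.2-fold there, from 4175 CPM in mural-like cells to 294 CPM in B cell-like cells.

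The B cell-like class had a mixture of its own. In the ATRA+agonist library, where it had 622 cells, Junb was at 1868 CPM, within the range of the stromal classes, and Jund at 2176 CPM, above every class but MuSC-like cells, whereas Fos was at 273, Jun at 140, Atf3 at 123 and Egr1 at 56 CPM. After each cell was thinned to 2000 UMIs, Junb and Jund each had a UMI in 94% of these cells, Fos in 30% and Egr1 in 6%. Nr4a1, which B cells induce on antigen receptor signalling, was at 357 CPM, the highest of the 11 classes, with an interval that overlapped that of mural-like cells (347 CPM). The larger cluster, led by Bank1 and Ighd (539 cells), had Atf3 at 20.1 and Fos at 311 CPM. The smaller, led by Cacna1e and Il5ra (83 cells), had them at 450 and 154 CPM. Junb and Jund were at 2010 and 2325 CPM in the larger and at 1419 and 1707 CPM in the smaller. Only 31 cells of this class were in the vehicle library, so no ratio is given.

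The stress and feedback members marked other classes. Dusp1 was highest in monocyte or macrophage-like cells of both libraries (1247 and 1129 CPM), with endothelial-like cells next (896 and 851 CPM). Atf3 was also highest in monocyte or macrophage-like cells (1095 and 1052 CPM), with the glial-like class (1050 CPM) or the mural-like class (1024 CPM) beside it within the intervals. The same cells were low in Egr1, at 812 and 921 CPM against 1965 to 3406 CPM in the MuSC-like, FAP-like, tenocyte-like, endothelial-like, glial-like and mural-like classes. Ier2 was highest in endothelial-like cells of both libraries (947 and 748 CPM), the class in which Nr4a1 was lowest in the vehicle library (102 CPM). In neutrophil-like cells Egr1 was at 39 CPM (20 cells) and 36 CPM (147 cells).

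Free RNA can add UMIs of abundant genes to any droplet. Barcodes with at least 80% hemoglobin UMIs, 2238 and 7805 in number, served as a gauge: in their other UMIs, 9 of the members were at 17 to 203 CPM, and the FAP gene Dcn was at 198 and 348 CPM. In B cell-like cells of the ATRA+agonist library, Jun (140 CPM) and Egr1 (56 CPM) lay below the gauge for the same genes (175 and 192 CPM). In neutrophil-like cells Egr1 lay below it and Jun, at 177 and 185 CPM, beside it. The gauge is a share of the non-hemoglobin UMIs of these barcodes, though, not an amount per droplet. In the ATRA+agonist library Jun had 82 UMIs over 2238 hemoglobin barcodes and 541 over 622 B cell-like cells, and Egr1 90 and 215. A level below the gauge is thus not shown to be free RNA, and its source was not tested. Over the B cell-like class as a whole, Fos (273 against 181 CPM) and Atf3 (123 against 55 CPM) lay above the gauge. By cluster, Fos did so only in the larger and Atf3 only in the smaller. Jund stood apart from the other members in the hemoglobin barcodes. It was at 2522 CPM (2381 to 2670) in the ATRA+agonist library and 1411 CPM (1357 to 1466) in the vehicle library. Alas2, an erythroid gene, was at 32998 and 31785 CPM there. The gauge was not used for Jund. In the Acta1-led barcodes, Fos (224 against 181 CPM), Fosb (79.0 against 79.0), Junb (213 against 198) and Egr1 (195 against 192) lay beside the gauge. Jun (258 against 175 CPM), Atf3 (100 against 55.5), Nr4a1 (26.3 against 17.1) and Dusp1 (103 against 76.8) lay above it with overlapping intervals. Ier2 (44.7 against 74.7 CPM) lay below it. Fos had 85 UMIs over the 229 Acta1-led barcodes and 85 over the 2238 hemoglobin barcodes of that library. A similar CPM was therefore not a similar amount per droplet, and the source of these levels was not tested.

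The comparison of the libraries asked whether the level of the family differed after the retinoid injections, in each of the 5 classes with at least 200 cells in both libraries. A gene is called higher or lower where its CPM ratio was at least 1.5-fold. In MuSC-like cells (414 and 532) all 10 members were higher in the ATRA+agonist library, with intervals above 0 on the log2 scale, and 3 of 10 passed 1.5-fold. Of all 7256 genes with at least 100 UMIs in this class, 3.97% were higher and 3.13% lower by that much. The median log2 ratio of the 10 members was 0.46, against 0.03 over all genes tested, whose 90th percentile was 0.41. In mural-like cells (218 and 323) all 10 were lower, with intervals below 0, and 4 passed 1.5-fold, where 6.94% of 4164 genes were lower and 4.37% higher. Their median was -0.48, against 0.02 over all genes and a 10th percentile of -0.48.

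**Figure D2:**
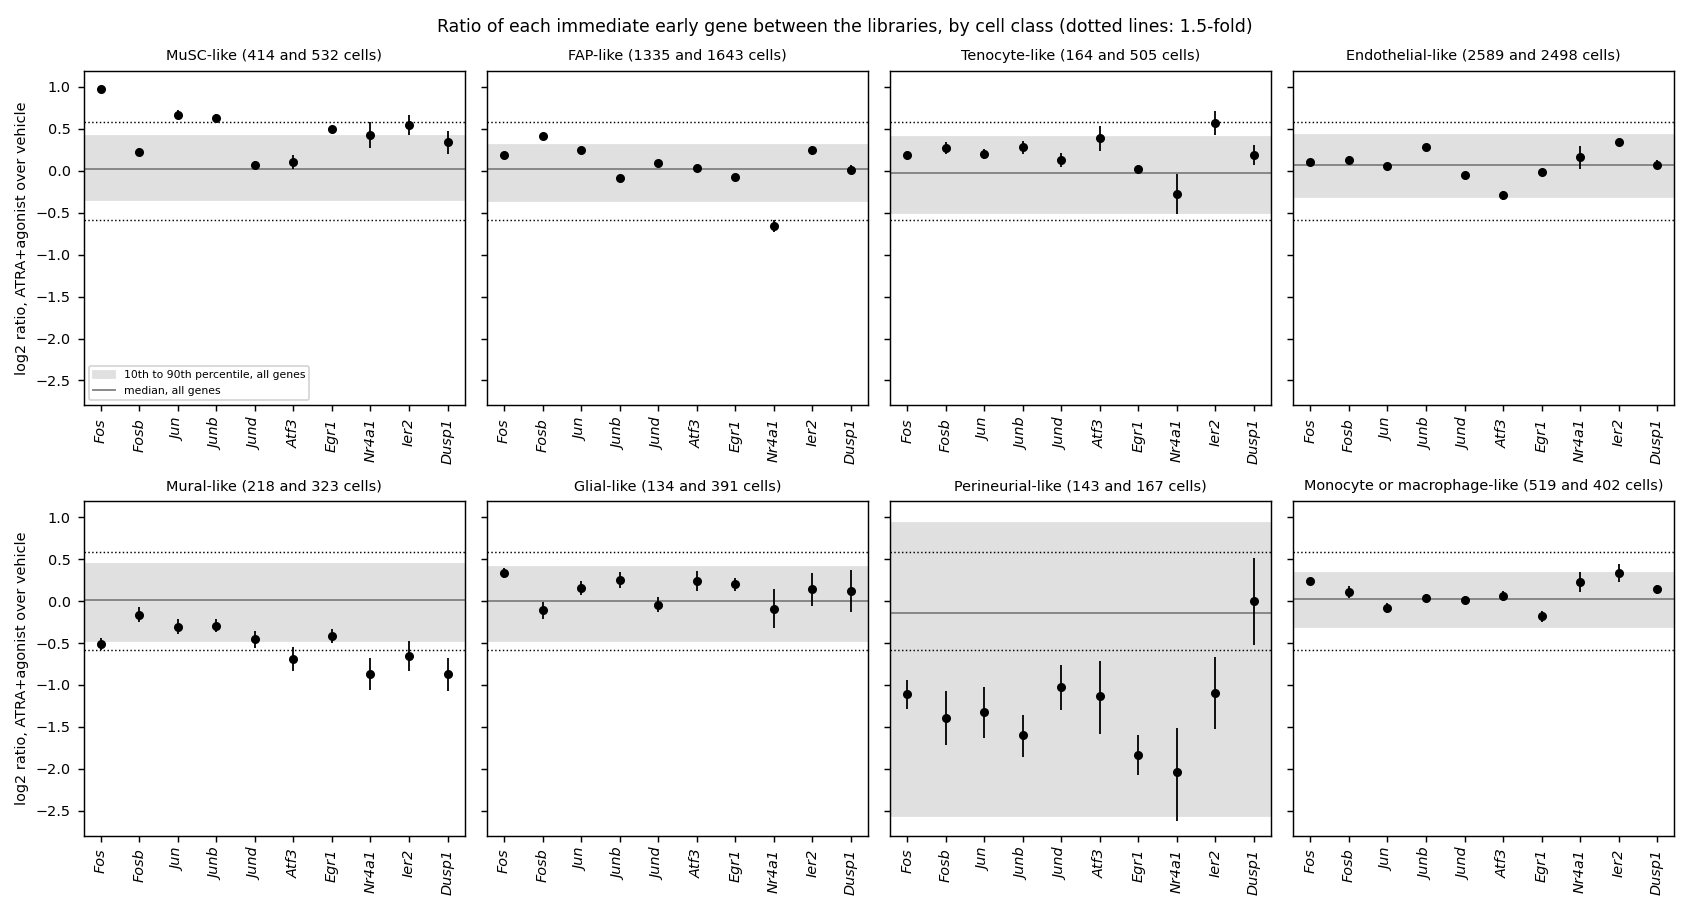
log2 ratio of each member (ATRA+agonist over DMSO vehicle) in 8 cell classes, with exact 95% intervals, over the 10th to 90th percentile band and median of all genes tested in that class. The members lie above the median of all genes in MuSC-like cells, up to 0.97 for Fos, and below it in mural-like cells, down to -0.87 for Dusp1.

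In MuSC-like cells the ratios were led by 3 AP-1 genes. Fos was at 4117 CPM in the ATRA+agonist library and 2097 CPM in the vehicle library, a log2 ratio of 0.97 (0.93 to 1.01). Jun was at 2058 and 1295 CPM, with a log2 ratio of 0.67 (0.62 to 0.72). Junb was at 2659 and 1723 CPM, with a log2 ratio of 0.63 (0.58 to 0.67). These 3 were the members past 1.5-fold. Ier2 (384 and 263 CPM) had a log2 ratio of 0.55, Egr1 (3066 and 2166 CPM) of 0.50, Nr4a1 (218 and 162 CPM) of 0.43 and Dusp1 (267 and 211 CPM) of 0.34. The 3 smallest ratios belonged to Fosb at 0.23, Atf3 at 0.11 (662 and 616 CPM) and Jund at 0.07. Fosb and Jund, the subunits that set MuSC-like cells apart from the other classes in both libraries, were thus among the members that differed least between them.

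The MuSC-like class held 2 clusters of unlike level. The larger, led by Hs6st3, Asb5 and Pax7 (353 and 494 cells), had all 10 members together at 20455 CPM (20297 to 20615) and 14188 CPM (14069 to 14307). The smaller, with 61 and 38 cells, had 3188 (2954 to 3436) and 3968 CPM (3615 to 4346), so the direction was the opposite there. Its cells were shallower, with a median of 3011 and 2876 UMIs against 8373 and 6834, and held Malat1 at 55269 and 49082 CPM against 23680 and 22938.

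In mural-like cells the ratios were led by the feedback gene and the nuclear receptor. Dusp1 was at 332 CPM in the ATRA+agonist library and 607 CPM in the vehicle library, a log2 ratio of -0.87 (-1.07 to -0.68). Nr4a1 was at 347 and 632 CPM, with a log2 ratio of -0.87 (-1.06 to -0.68). Atf3 was at 636 and 1024 CPM, with a log2 ratio of -0.69 (-0.83 to -0.54), and Ier2 at 405 and 639 CPM, with one of -0.66 (-0.84 to -0.48). Fos (2927 and 4175 CPM) had a log2 ratio of -0.51, Jund of -0.46, Egr1 of -0.42, Jun of -0.30, Junb of -0.29 and Fosb of -0.16. The members with the largest ratios here were not those of MuSC-like cells, apart from their direction: the AP-1 genes past 1.5-fold in MuSC-like cells were within 1.5-fold in this class. The difference between the classes was not tested, since each rests on the same 2 libraries. The number past 1.5-fold here depended on the filters: it was 1 without doublet removal and 2 without the upper limit on genes per cell, and in MuSC-like cells it was 1 of 10 without that limit.

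In the other compared classes the medians were within 0.1 of 0, but 2 of them moved with the processing. In endothelial-like cells the mean of log-normalized values gave -0.19. In monocyte or macrophage-like cells the median was 0.31 without doublet removal and 0.29 with each cell assigned by its own markers. FAP-like cells had a median log2 ratio of 0.06, with Nr4a1 as the 1 member past 1.5-fold, at 190 and 299 CPM, a log2 ratio of -0.66 (-0.73 to -0.59), where 4.42% of 11594 genes were lower and 2.08% higher. Their largest ratio upward was that of Fosb, at 0.41 (1457 and 1093 CPM). Endothelial-like cells had a median of 0.09, from -0.29 for Atf3 to 0.34 for Ier2, and no member past 1.5-fold, where 3.95% of 9733 genes were higher and 3.54% lower. Their median over all genes was 0.07. Monocyte or macrophage-like cells had a median of 0.08, from -0.18 for Egr1 to 0.34 for Ier2, and none past 1.5-fold, with 2.04% of genes higher and 2.33% lower. Over the 5 classes, Fos, Fosb, Ier2 and Dusp1 were above 0 in 4, the exception being mural-like cells, and Egr1 was above 0 in MuSC-like cells only.

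Within the endothelial-like class the members followed the clusters. Cells led by Cytl1, Nebl and Sema3g were at 17593 and 16605 CPM for the 10 genes together. Cells led by interferon-response genes (Cd274, Gbp4 and Ubd), of which 120 were in the ATRA+agonist library and 1067 in the vehicle library, were at 18842 and 15055 CPM. The main cluster was at 15413 and 14393 CPM, and the cluster led by Ccl21a and Mmrn1 at 11901 and 9416 CPM. A cluster of shallow cells (median 768 and 899 UMIs), led by Rflnb and Unc45b and with Malat1 at 708 and 1178 CPM, was lowest at 6708 and 4497 CPM. All 5 clusters were higher in the ATRA+agonist library, and the libraries held them in unlike shares. Among FAP-like cells the Pi16-led cluster, at 11417 and 11886 CPM, was below the Cxcl14-led one at 17083 and 15518 CPM.

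Of the classes with 100 to 199 cells in a library, tenocyte-like cells (164 and 505) had a median log2 ratio of 0.20 and glial-like cells (134 and 391) of 0.15, with no member past 1.5-fold. Of all genes tested, 3.82% were higher and 7.09% lower in the first of these classes, and 4.26% and 6.96% in the second. Perineurial-like cells (143 and 167) had a median of -1.23, with 9 members lower by 1.5-fold, but 39.4% of the 1319 genes tested were lower and 24.0% higher, so the class as a whole stood apart. Its cells had a median of 521 genes in the ATRA+agonist library and 889 in the vehicle library, 6.59% and 4.24% mitochondrial UMIs, and Malat1 at 5123 and 24307 CPM. The 4 perineurial markers summed to 240 CPM with ATRA+agonist and 1814 with vehicle, and the monocyte and macrophage markers to 7978 and 1529 CPM, so the cells of the ATRA+agonist library hardly carried the markers that named the class. Nothing is read from its ratios. In glial-like cells the monocyte and macrophage markers summed to 252 and 2120 CPM, beside 6479 and 5878 CPM for the glial list, and their part in the glial ratios was not tested.

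Markers of other cell types and measures of RNA quality also moved between the libraries, and their part in the ratios was not tested. The 8 muscle fiber markers summed to 110 and 46.2 CPM in MuSC-like cells and to 193 and 17.5 CPM in mural-like cells, higher with ATRA+agonist in both. The 8 neutrophil markers summed to 1.20 and 123 CPM in MuSC-like cells, and the 9 smooth muscle and pericyte markers, the largest list of another type there, to 917 and 677 CPM (log2 ratio 0.44). Malat1 was at 25721 and 23706 CPM in MuSC-like and at 54476 and 46002 CPM in mural-like cells. Hemoglobin was lower with ATRA+agonist, at 286 and 861 CPM in MuSC-like and 430 and 1274 CPM in mural-like cells. The median share of mitochondrial UMIs differed little, at 2.99% and 2.77% in the first class and 2.82% and 2.91% in the second. Both classes kept the markers that named them: the MuSC list summed to 3349 and 3142 CPM, and the smooth muscle and pericyte list to 18251 and 19119 CPM. The second sum joins markers of both cell types, so it does not show whether their shares were alike, which was not tested.

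Single cells differed widely within a class and library. Each cell was thinned to 2000 UMIs, which left out 13 and 19 MuSC-like cells and 39 and 45 mural-like cells as too shallow. A MuSC-like cell then held 40.9 ± 27.3 member UMIs (mean ± SD over 401 cells) in the ATRA+agonist library and 31.5 ± 19.4 (513 cells) in the vehicle library, with medians of 39 and 29. The 10th percentiles were 7 and 9 and the 90th percentiles 74 and 58, so the libraries differed in the middle and upper part of the distribution and not in this direction at its lower end. In mural-like cells the means were 26.2 ± 26.3 (179 cells) and 37.9 ± 25.0 (278 cells) and the medians 20 and 39, while the 90th percentiles were 65.6 and 69.3. There the libraries differed in the middle and lower part, and 27.9% (21.5 to 35.1) of the cells had 5 or fewer member UMIs with ATRA+agonist, against 16.5% (12.4 to 21.5) with vehicle. The 10% of cells with the most member UMIs held 33.0% of the member UMIs of this class in the ATRA+agonist library and 22.0% in the vehicle library. Cells of 1 library are not replicates, so the intervals, which are exact binomial, do not compare the treatments.

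**Figure D3:**
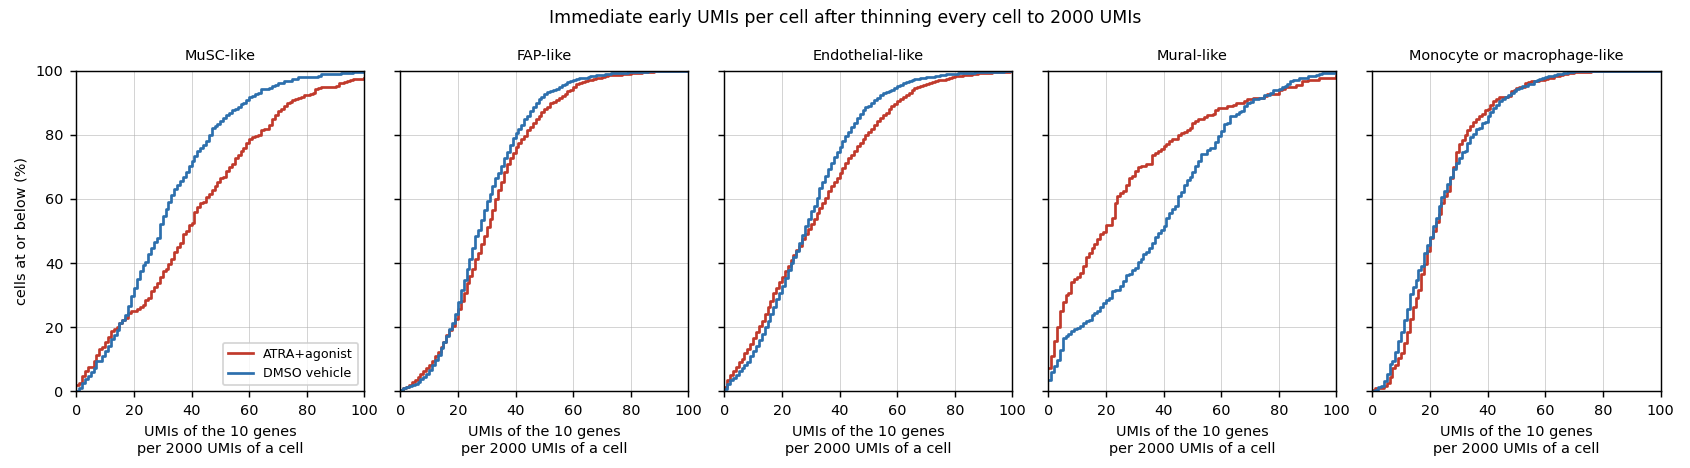
Cumulative percent of cells (vertical axis) by the UMIs of the 10 genes per 2000 UMIs of a cell (horizontal axis, cut at 100) in the 5 compared classes. The curves lie apart at the median in MuSC-like cells (39 and 29) and, in the other direction, in mural-like cells (20 and 39), and lie closer together in the other classes.

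In the other classes the thinned levels were close. FAP-like cells had medians of 30 and 27 member UMIs, endothelial-like cells of 29 and 28, and monocyte or macrophage-like cells of 22 and 21. Cells with no member UMI at all were few: 8 of 401 MuSC-like cells with ATRA+agonist, 2.00% (0.87 to 3.89), and 0 of 513 with vehicle, with an exact upper bound of 0.72%. Across cells, the sum of the members had a Pearson r between -0.39 and 0.17 with log depth and between -0.38 and 0.07 with the mitochondrial share in the 5 classes and 2 libraries. The 2 lowest values for depth, -0.38 and -0.39, were those of monocyte or macrophage-like cells. In MuSC-like cells the values differed between the libraries. They were -0.0006 and -0.33 for depth, -0.38 and -0.15 for the mitochondrial share and -0.23 and 0.12 for the share of Malat1. Their part in the ratios was not tested. These are descriptions over the cells of 1 library, which share its depth and preparation.

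The members went together from cell to cell to a degree that depended on the class. Over the 45 pairs of members, the median Pearson r across cells was 0.49 and 0.40 in mural-like cells, 0.27 and 0.19 in MuSC-like cells, 0.20 and 0.17 in FAP-like cells and 0.15 and 0.20 in monocyte or macrophage-like cells. In MuSC-like cells of the ATRA+agonist library the closest pairs were Fos with Junb and Junb with Egr1 (both 0.58), and Atf3 with Dusp1 was at 0.00. In the vehicle library the closest was Fos with Egr1 (0.54). Junb with Egr1 was the closest pair in 6 of the 16 combinations of class and library. Such values are weak in sparse counts and carry no test.

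A wider list of 57 genes held other immediate early, feedback and heat shock genes. In MuSC-like cells 49 had at least 100 UMIs, with 6 higher and 4 lower by 1.5-fold and a median log2 ratio of -0.02, so the wider list as a whole did not show the difference seen in the 10 members. Those higher were Ccn1, a secreted matrix protein (188 and 95.5 CPM, log2 ratio 0.98), Klf2, a Krüppel-like factor (288 and 155 CPM, 0.90), Btg2, which promotes mRNA decay (965 and 553 CPM, 0.80), Gadd45g (0.80), Klf10 (0.75) and the chemokine Cxcl1 (0.60). Those lower were Ier5 and 3 heat shock genes: Hspa1b (36.3 and 94.9 CPM, -1.39), Hsph1 (36.6 and 63.3 CPM, -0.79) and Hspa1a (83.8 and 136 CPM, -0.70). Of all genes tested in this class, 3.97% were higher and 3.13% lower. The groups within the list differed in their medians. These were 0.29 for feedback and mRNA decay, 0.24 for other EGR and NR4A and 0.10 for other early transcription factors. They were -0.15 for heat shock, -0.20 for other AP-1 and bZIP and -0.24 for secreted early genes. In mural-like cells 42 genes of the wider list were measured, with none higher and 12 lower, and a median of -0.46. Of all genes tested in mural-like cells, 6.94% were lower and 4.37% higher. The largest ratios there were those of Gadd45g (78.6 and 220 CPM, -1.48) and Cebpd, a bZIP factor (226 and 617 CPM, -1.45), followed by Klf2 (-0.97), Cxcl1 (-0.96), Cebpb (-0.90), Klf4 (-0.80) and Zfp36, which destabilizes inflammatory mRNAs (458 and 799 CPM, -0.80). The other orphan receptors, Nr4a2 and Nr4a3, were lower at -0.63 and -0.60.

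**Figure D4:**
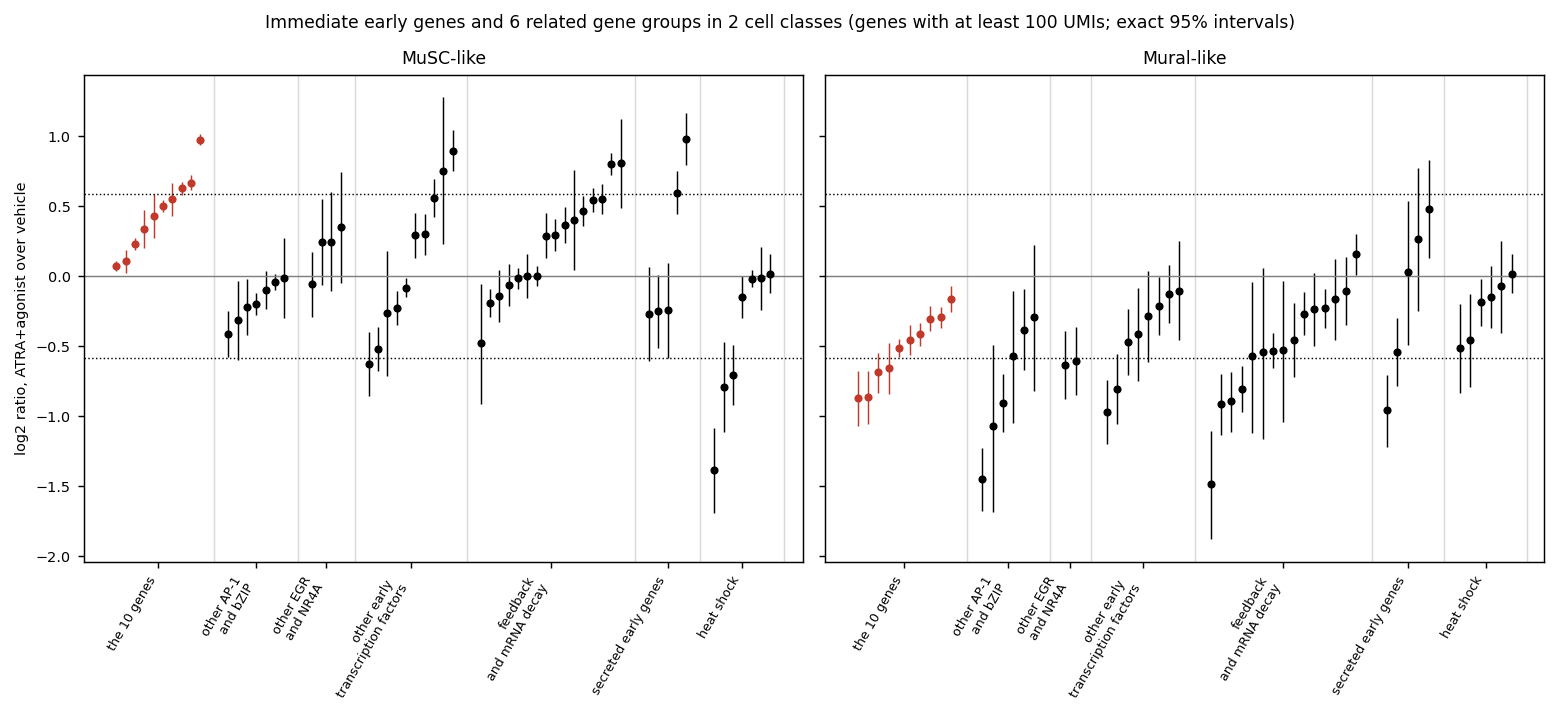
log2 ratio (ATRA+agonist over DMSO vehicle) of the 10 members, in red, and of 6 groups of related genes with at least 100 UMIs, in black, with exact 95% intervals in MuSC-like (left) and mural-like cells (right). On the left the heat shock group reaches down to -1.39 (Hspa1b) while the 10 members lie above 0, and on the right most groups lie below 0.

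Of the 7 heat shock genes, 3 were lower by 1.5-fold in MuSC-like cells, 1 in FAP-like, 2 in endothelial-like and 2 in monocyte or macrophage-like cells, and none was higher. Of all genes tested, 3.13%, 4.42%, 3.54% and 2.33% were lower by that much in these classes, in this order. In mural-like cells none of the 6 measured passed, with a median log2 ratio of -0.17, of the same sign as the members. Hspa1a and Hspa1b, inducible chaperones of the HSP70 family that dissociation is also known to induce, were lower by 1.5-fold with ATRA+agonist in MuSC-like, endothelial-like and monocyte or macrophage-like cells, the only genes of the wider list to pass in the same direction in at least 3 of the 5 classes. In endothelial-like cells Hspa1a was at 199 and 322 CPM (-0.70) and Hspa1b at 150 and 258 CPM (-0.78). In monocyte or macrophage-like cells they were at 144 and 270 CPM (-0.91) and at 82.3 and 190 CPM (-1.21). In FAP-like cells they were within 1.5-fold, at 0.00 and -0.15. These 2 genes are near-identical copies, so their UMIs could have been split between them. FAP-like cells had 9 of 53 genes of the wider list lower and none higher, where 4.42% of all genes tested were lower and 2.08% higher. Among the 9 were the chemokine Ccl2 (51.9 and 165 CPM, -1.67), Cebpd (667 and 1244 CPM, -0.90) and Cebpb (205 and 329 CPM, -0.68). Cebpd and Cebpb were thus lower in both FAP-like and mural-like cells, whereas in MuSC-like cells they were at -0.04 and -0.20.

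The genes whose level across classes was most like the sum of the members were not other immediate early genes. Over 16 points (8 classes in 2 libraries) and 9035 genes, the 10 highest Pearson r of log2(CPM + 10) values were 0.92 to 0.94, led by Smg6, Fbxl17, Ccdc186 and Thada. Without perineurial-like cells, over 14 points, these 4 were between 0.64 and 0.74, and the highest was Gnl3l at 0.91, with Setd1a the only gene among the 10 highest in both. None of these genes was on the wider list. The likeness of the members to the sum of the others depended on the same class. Jun, the closest, went from 0.84 to 0.58, Junb from 0.72 to 0.07, and Atf3 and Dusp1 from 0.49 and 0.15 to -0.39 and -0.53. The points share 2 libraries and no p-value is given.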

How the data were processed

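Cells from digested hindlimb muscle were captured with the 10x Genomics Chromium 3' kit. The authors made the deposited UMI counts per gene and barcode with Cell Ranger 7.2.0 on mm10, with no normalization. Whether intronic reads were counted is not given in the sources used here. Following the study's methods, barcodes with 300 to 5000 genes, under 20% mitochondrial UMIs and under 0.25% hemoglobin-beta UMIs were kept, and the 7.5% with the most simulated doublets among their neighbours were removed. Cells were log-normalized, reduced to 30 components of 2000 variable genes without the listed genes, and clustered by the Louvain method (resolution 0.8). Clusters were named where at least 3 listed markers were enriched. Counts were summed per class and library as CPM. Exact Poisson, binomial and conditional binomial intervals were used, with no test. Members in every class were named, with genes of the wider list past 1.5-fold in 3 classes and the 10 genes most like the members. Members and lists were chosen with earlier results of these data known. The code for ratios and intervals was checked on simulated counts with known ratios. Python 3.11.15 and scipy 1.17.1 were used.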

Additional observations from a re-analysis of the deposited data

Results flagged for a closer look

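The median log2 ratio of the 10 members (ATRA+agonist over DMSO vehicle) was 0.464878 in MuSC-like cells and -0.484551 in mural-like cells, with all 10 members above 0 in the first class and all 10 below 0 in the second. The difference was not tested, since both values rest on the same 2 libraries.

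Barcodes with at least 80% hemoglobin UMIs entered no comparison. In their other UMIs Jund was at 2522.35 CPM in the ATRA+agonist library, against 17 to 198 CPM for the other 9 members.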

How the results depend on the processing

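With 1 library per group, no library could be left out. No paired analysis was possible because each group has 1 library and the labels give no replicate numbers. Of 13 alternatives, all 13 kept the sign of the median of the members in MuSC-like (0.25 to 0.53), FAP-like (0.04 to 0.08), mural-like (-0.73 to -0.39) and monocyte or macrophage-like cells (0.02 to 0.31), and 12 in endothelial-like cells (-0.19 to 0.12). The mean of log-normalized values per cell, which weights shallow cells equally, gave 0.246 in MuSC-like, -0.187 in endothelial-like and -0.732 in mural-like cells, and -0.0366 for the wider list in FAP-like cells. Median-of-ratios scaling gave 0.0192 in endothelial-like cells. Without doublet removal the median was 0.307 in monocyte or macrophage-like cells and 1 member passed 1.5-fold in mural-like cells. Without the upper limit on genes, 1 member passed in MuSC-like cells, and in mural-like cells 2 passed with a median of -0.394. In monocyte or macrophage-like cells resolution 1.6 gave 0.0209 and assignment of each cell by its own markers 0.289. The restriction to cells with at least 2000 UMIs and the likeness without perineurial-like cells were chosen after seeing the data.

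With mitochondrial, ribosomal protein and hemoglobin UMIs left out, the summed level over the mean of the 5 classes was 1.43, 1.01, 0.953, 0.837 and 0.765 in MuSC-like, FAP-like, endothelial-like, mural-like and monocyte or macrophage-like cells with ATRA+agonist. With vehicle it was 1.10 in MuSC-like, 0.944 in endothelial-like, 1.19 in mural-like and 0.759 in monocyte or macrophage-like cells. MuSC-like cells thus stood above endothelial-like cells with vehicle. With all UMIs in the total they stood below, at 13887 against 14138 CPM. With cells thinned to 1000 UMIs, the 10% of cells with the most held 25.3% and 24.3% of the member UMIs in MuSC-like, 21.1% and 20.7% in FAP-like, 25.3% and 23.4% in endothelial-like, 34.9% and 24.5% in mural-like and 24.3% and 24.5% in monocyte or macrophage-like cells. Of the alternative values of single members, 487 stayed within the counting interval of the reported value and 163 did not, and no member past 1.5-fold changed sign. The cause of these shifts was not tested. The intervals cover counting error only, and PCR and capture are not in them.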
